A study of Mus musculus with 6 samples.

Results

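The genes described here are the transcription factor genes of the NF-E2 family, Nfe2, Nfe2l1 and Nfe2l2, and 7 antioxidant and detoxification genes listed as targets of NRF2, the protein encoded by Nfe2l2. They are Nqo1, Srxn1, Txnrd1, Gclc, Gclm, Hmox1 and Ugdh, and the set makes up 10 of 19938 genes measured. Nfe2 was chosen because it rose strongly in these arrays, so its values are given as a description with no test. The other 9 were chosen by name, with earlier results of these data known. All 10 were measured on 1 probe set each that is annotated to that gene alone, so no member was lost to annotation and no filter on low values was applied.

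Liver RNA was measured on 6 Affymetrix arrays of the Mouse Gene 1.0 ST type, on which several short probes report each transcript. Livers labelled LE (3 arrays, LE1 to LE3) came from mice whose chow held, per 100 g, 100 mg of lovastatin and 21 mg of ezetimibe. Livers labelled CH (3 arrays, CH1 to CH3) came from mice whose chow held powdered cholesterol at 1% by weight. All were male C57BL/6 mice, an inbred strain, 6 weeks old on receipt, and all had 1 week on plain chow first. Lovastatin inhibits HMG-CoA reductase, which acts early in making cholesterol, and ezetimibe stops the gut from taking cholesterol up, so the comparison sets a diet that limits cholesterol against one that supplies it. The feeding time is not given in the sources used here, and no chow group is analysed here, so neither diet can be set against chow. The labels call the arrays biological replicates without tying each to an animal, so p-values measure only the spread between these arrays, which may be partly technical.

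NF-E2 family factors are basic leucine zipper proteins that bind DNA as dimers with small Maf proteins. NRF2 is held in the cytoplasm by KEAP1, which hands it to a ubiquitin ligase. Electrophiles and oxidants release it, and it then drives genes that carry antioxidant response elements, among them those for glutathione synthesis, thioredoxin reduction and quinone reduction. NRF1, encoded by Nfe2l1, is anchored in the endoplasmic reticulum and is known for driving proteasome genes, and in mouse liver it has also been described as a protein that binds cholesterol. The NF-E2 subunit encoded by Nfe2 is known from red cell and platelet precursors. NRF2 is controlled mostly at the protein level, so the level of its mRNA is not a measure of its activity.

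With lovastatin and ezetimibe, Nfe2 had the largest change among these genes, at 4.86 times its level in CH livers. Of the 9 other members, 5 rose, 1 fell and 3 did not pass the test, which was limma's moderated test on log2(intensity + 1) with Benjamini-Hochberg adjustment over all genes and a threshold of 0.05. The risers were Srxn1 at 2.03-fold, Ugdh at 1.68-fold, Nqo1 at 1.33-fold, Hmox1 at 1.27-fold and Nfe2l1 at 1.24-fold. Gclc fell, and Nfe2l2, Gclm and Txnrd1 did not pass. Of all genes tested, 12.1% were called, 7.01% higher and 5.08% lower. Among genes with a mean level above the median, as all 10 members have, the shares were 20.0%, 12.0% and 8.08%. Since Nfe2 was picked from this contrast and the others with its results known, nothing is read from the members' count against these shares. The median change of the 9 was 0.31 on the log2 scale, beside 0.00 over all genes. The values of the LE and CH arrays did not overlap for 6 of the 9, and did not overlap for 30.6% of all genes.

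**Figure D1:**
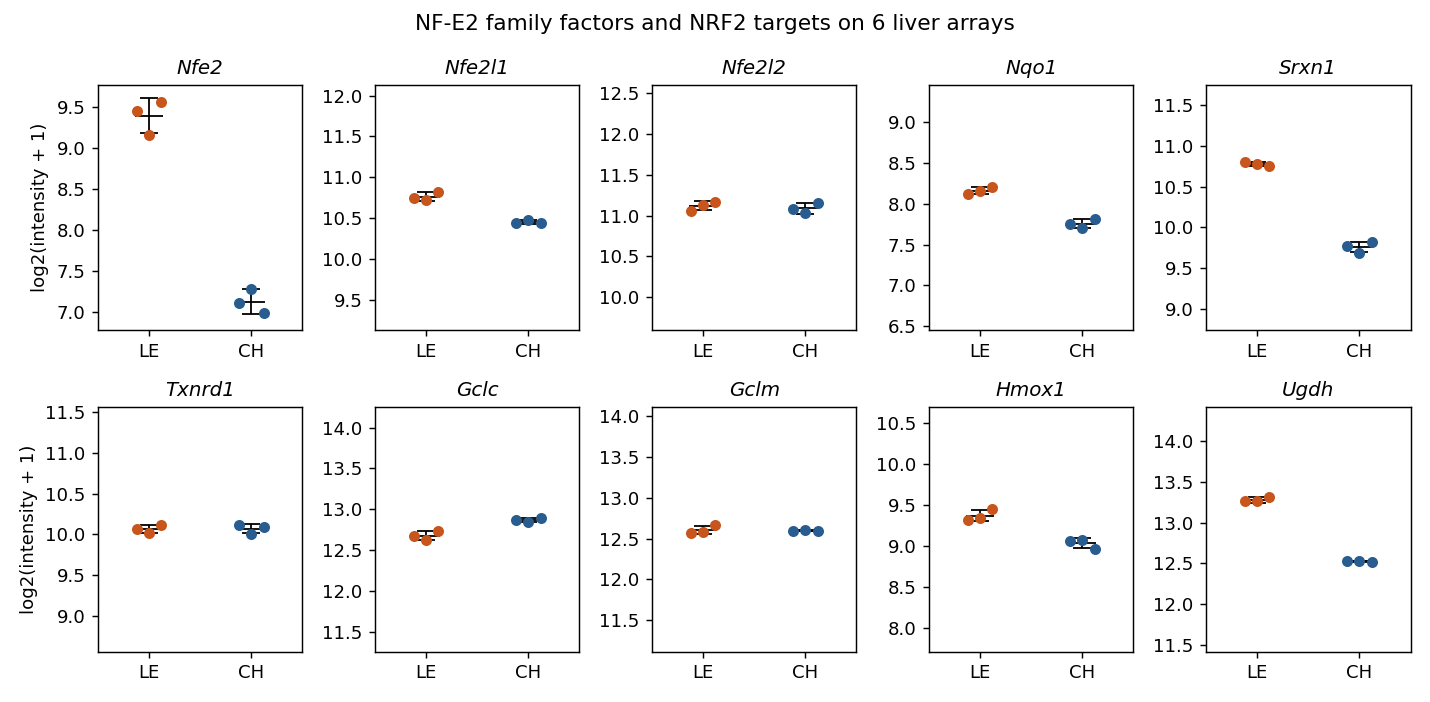
Level of each member on the 6 arrays as log2(intensity + 1), with LE left of CH, points for arrays and bars for the mean and SD of 3 arrays. Every panel spans the same number of log2 units, so the gap for Nfe2 (9.40 in LE and 7.12 in CH) can be set against the overlap of LE and CH for Nfe2l2, Txnrd1 and Gclm.

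Nfe2 had intensities of 704, 571 and 758 on LE1 to LE3, against 136, 154 and 125 on CH1 to CH3. Each LE array was well above each CH array, and the LE arrays were spread more widely. Its mean log2 level was 9.40 ± 0.21 in LE livers and 7.12 ± 0.15 in CH livers (SD, n = 3 each), a change of 2.28 (SE 0.12). That change ranked 28th from the highest among 19938 genes. The SE was the widest of the 10 members and compares with a median of 0.065 over all genes.

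Nfe2l1 read 1724, 1685 and 1806 on the LE arrays and 1386, 1427 and 1384 on the CH arrays. The groups were apart, with a small gap. The change was 0.31 on the log2 scale (SE 0.05, limma adjusted p = 0.00592), and the gene was higher on 3 of 3 LE arrays than on any CH array. Nfe2l2 read 2139, 2246 and 2306 on the LE arrays and 2171, 2095 and 2280 on the CH arrays, and the groups overlapped. Its change of 0.03 had a 95% interval from -0.10 to 0.16 (adjusted p = 0.798). The log2 ratio of Nfe2l1 to Nfe2l2 within an array, which no scaling of the array can move, was 0.28 higher in LE livers than in CH livers, without overlap between the groups. The pairs set as ratios, here and below, were chosen with earlier results of these data known, so their separation is only a description.

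Srxn1 encodes sulfiredoxin, which repairs over-oxidised peroxiredoxins. Its intensities were 1787, 1758 and 1725 on the LE arrays and 872, 827 and 901 on the CH arrays. The lowest LE array lay far above the highest CH array, and the change was 1.02 (SE 0.05, adjusted p = 1.34e-05). Across the arrays, 0.747% of all genes had a larger change in either direction. Txnrd1, the cytosolic thioredoxin reductase, belongs to the same thiol system. It read 1075, 1036 and 1110 on the LE arrays and 1101, 1027 and 1087 on the CH arrays, so the groups overlapped throughout. Its change was 0.00, with a 95% interval from -0.12 to 0.13 (adjusted p = 0.986). Within arrays the log2 ratio of Srxn1 to Txnrd1 was 1.02 higher in LE livers, without overlap.

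Gclc and Gclm encode the catalytic and the modifier subunit of glutamate-cysteine ligase, the enzyme that sets the pace of glutathione synthesis. Gclc read 6509, 6284 and 6770 on the LE arrays and 7507, 7313 and 7598 on the CH arrays. All LE arrays were below all CH arrays, by a small margin, with a change of -0.20 (SE 0.05, adjusted p = 0.0443). The call ended without any 1 array other than LE3 (LE1, LE2, CH1, CH2 or CH3), with adjusted p between 0.0826 and 0.143. Gclm read 6096, 6136 and 6472 on the LE arrays and 6181, 6206 and 6145 on the CH arrays. The groups overlapped, and its change of 0.01 had a 95% interval from -0.10 to 0.13 (adjusted p = 0.916). The log2 ratio of Gclc to Gclm within an array was 0.21 lower in LE livers than in CH livers, at -0.18, -0.24 and -0.21 on LE1 to LE3 relative to the CH mean. The CH arrays were at 0.01, -0.04 and 0.03 on the same scale, without overlap between the groups. Since Gclm changed by 0.01, the ratio mostly repeats the change of Gclc and adds no support to its call.

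Nqo1 encodes a quinone reductase that is widely used as a readout of NRF2. It read 277, 283 and 295 on the LE arrays and 215, 207 and 223 on the CH arrays, without overlap, a change of 0.41 (SE 0.05, adjusted p = 0.00207). Ugdh makes UDP-glucuronate, the sugar donor of glucuronidation. It read 9842, 9785 and 10207 on the LE arrays and 5911, 5911 and 5891 on the CH arrays, a change of 0.75 (SE 0.05, adjusted p = 3.81e-05). The CH values of Ugdh hardly differed from each other, and every LE array was far above them.

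Hmox1 encodes haem oxygenase 1, which breaks down haem and in liver is strongly expressed by macrophages. Its intensities were 637, 646 and 700 on the LE arrays and 532, 538 and 496 on the CH arrays. The groups were apart, with a change of 0.34 (SE 0.06, adjusted p = 0.00901). Markers of macrophages and Kupffer cells moved with it: 13 of 15 rose and 0 fell, also at an unadjusted p under 0.05. Over all genes tested 7.01% were called higher and 5.08% lower by the adjusted test, and above the median level 12.0% and 8.08%. An unadjusted p under 0.05 is a looser cutoff, and its share over all genes is not given, here or below. Counts at that cutoff therefore cannot be set against these shares. The mean log2 level of these markers was 9.45 to 9.50 on the LE arrays and 9.06 to 9.14 on the CH arrays. Their median change was 0.37, close in size to that of Hmox1 and Nqo1, and Cd68, a lysosomal protein of macrophages, changed the most at 0.55 (SE 0.05). The part of these cells in the changes of Hmox1 and Nqo1 was not tested. In whole liver RNA, more cells of a type and more RNA per cell cannot be told apart.

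**Figure D2:**
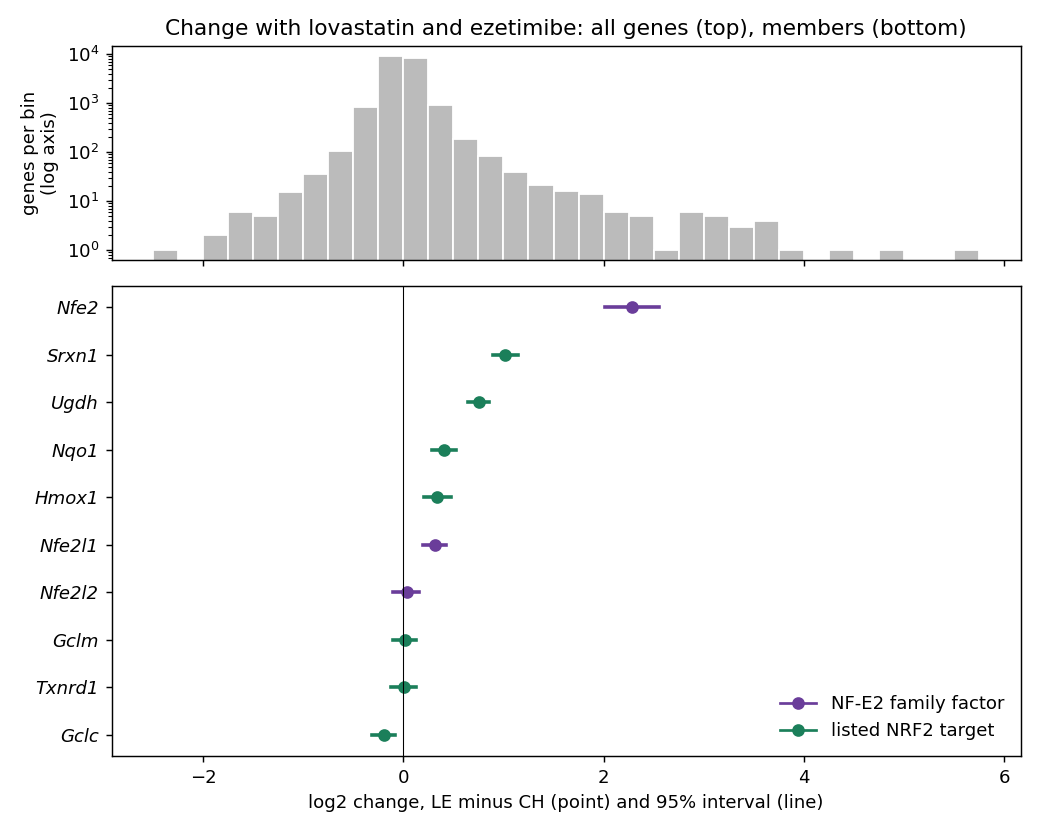
The top panel counts all 19938 genes by their log2 change, LE minus CH, on a log axis, and the bottom panel gives each member's change as a point with its 95% interval. Nfe2 at 2.28 lies in the sparse right tail, where its choice as a strong riser puts it, so its interval is no test. Srxn1 at 1.02 and Ugdh at 0.75 follow, and the intervals of Nfe2l2, Gclm and Txnrd1 include 0.

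**Figure D3:**
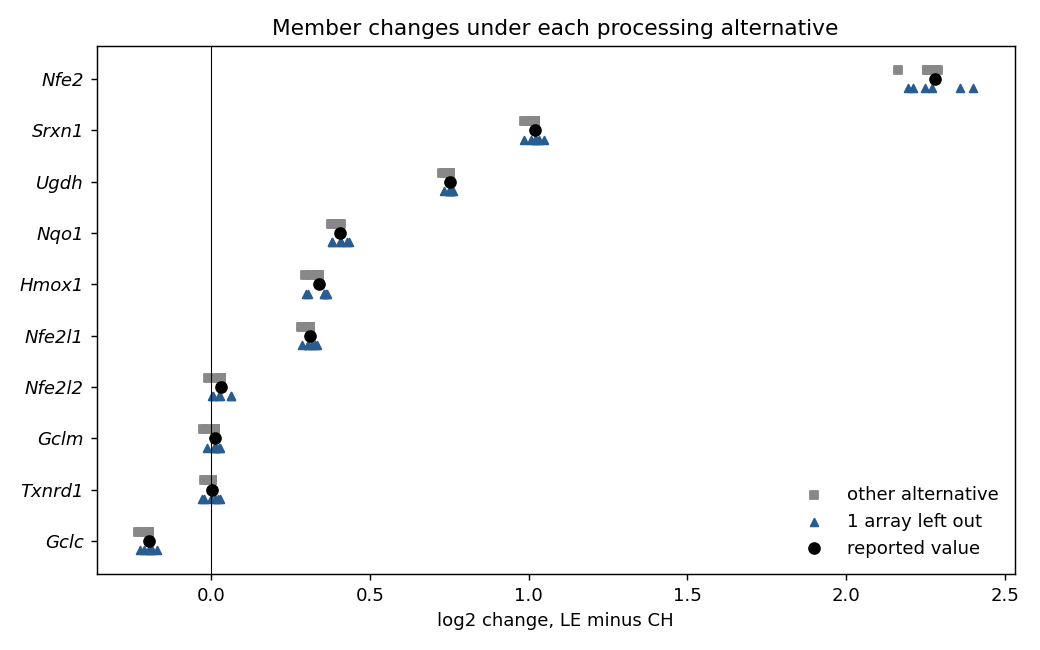
Log2 change, LE minus CH, of each member as reported (circle), in the 6 fits that leave out 1 array (triangles) and in the other alternatives (squares). Nfe2 stays between 2.16 and 2.40, while Nfe2l2, Gclm and Txnrd1 have values on both sides of 0.

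Of the cells known for Nfe2, 2 erythroid markers were lower and 1 marker of megakaryocytes and platelets was higher, where 5.08% of all genes tested were lower and 7.01% higher. Of 12 measured erythroid markers 0 rose and 2 fell by limma, and the same counts came at an unadjusted p under 0.05 and by a test built like cyberT, the program named in the series design (the cyberT-like test). Alas2, the red cell enzyme of haem synthesis, fell by 0.82 (SE 0.05, adjusted p = 3.38e-05). Klf1, an erythroid transcription factor, fell by 0.32 (SE 0.09, adjusted p = 0.0468), a call that ended without LE1, LE2, CH1, CH2 or CH3 (adjusted p 0.0726 to 0.127). The mean log2 level of these 12 markers was 6.98 to 7.08 on the LE arrays and 7.11 to 7.18 on the CH arrays. Their median change was only -0.03, so the gap between these means came mostly from Alas2 and Klf1 and was not a shared fall. Of the 12 markers, 10 lay below the median level of all genes. Of 11 measured markers of megakaryocytes and platelets 1 rose and 0 fell, in both of these counts too, with a mean log2 level of 7.51 to 7.61 on the LE arrays and 7.45 to 7.53 on the CH arrays. The riser was Tbxas1, the thromboxane synthase, at 0.30 (SE 0.06, adjusted p = 0.0206), whose call ended without LE1, LE3, CH1 or CH3 (adjusted p 0.0595 to 0.0683). Of 13 neutrophil markers 0 passed limma's test in either direction, 2 were lower at an unadjusted p under 0.05 and 1 was lower by the cyberT-like test. All 13 lay below the median level, and without CH2 1 of them was called higher. Elane, a neutrophil protease, had the largest change of these, at -0.24 (adjusted p = 0.0777). Elane was called lower after quantile normalisation (adjusted p = 0.0358), after centring on array medians (adjusted p = 0.032) and without the dimmest 33.3% of genes (adjusted p = 0.0297), as it was by the cyberT-like test (adjusted p = 0.0433).

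Of 11 hepatocyte markers, 10 of sinusoidal endothelium and 7 of cholangiocytes, 0 passed limma's test in either direction, with median changes of 0.00, -0.04 and -0.03. At an unadjusted p under 0.05, 2 hepatocyte markers were higher, and 4 endothelial and 1 cholangiocyte markers were lower. By the cyberT-like test, and with a robust limma prior that follows intensity (the intensity trend), 3 hepatocyte markers were higher and 1 lower, and 3 endothelial and 1 cholangiocyte markers were lower. After quantile normalisation 3 endothelial markers were lower. The members with the largest change in these lists were Tat, a tyrosine-degrading enzyme of hepatocytes, at 0.12 (adjusted p = 0.16), Oit3, a sinusoidal endothelial protein, at -0.16 (adjusted p = 0.182) and the chloride channel gene Cftr at -0.34 (adjusted p = 0.0522). Tat passed with the intensity trend (adjusted p = 0.00161) and by the cyberT-like test (adjusted p = 0.00216). Cftr lay close to the threshold and was dim, with a mean log2 level of 5.21 in LE livers and 5.55 in CH livers. Its mean level was at percentile 7.8 of all genes, and the fit without the dimmest genes left it out. Of the 7 cholangiocyte markers, 6 lay below the median level. Cftr was called lower without LE3 (adjusted p = 0.0202) and after centring on array medians (adjusted p = 0.0378). The intensity trend, a pseudocount of 16 and the cyberT-like test also called it lower (adjusted p = 0.0454, 0.0459 and 0.0354). These calls rest on a dim signal. The hepatocyte markers were bright throughout, at a mean log2 level of 13.98 to 14.02 on the LE arrays and 13.98 to 14.01 on the CH arrays, as is usual for liver. Of 10 stellate cell markers 1 fell, the collagen gene Col3a1 at -0.19 (adjusted p = 0.0389), a call that ended without any 1 array (adjusted p 0.0669 to 0.147).

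The genes whose pattern was most like that of Nfe2 were found by the root mean square difference of log2 values over the 6 arrays, each gene centred on its own mean. The nearest were Acly, the enzyme that makes acetyl-CoA from citrate (difference 0.139), Acss2, which makes it from acetate (0.157), Stard4, a sterol carrier (0.161), Cib3, of a family of calcium-binding proteins (0.168), and Pstpip2, an adaptor protein (0.175). All 5 were on the same side as Nfe2 in the diet contrast, at 4.32 to 5.20 times their CH level, which the measure favours by design. Nqo1 was nearest to the kinase gene Gsk3b (0.008), the trafficking adaptor Tom1 (0.012) and the calcium-binding protein gene Necab1 (0.014), which were 1.32 to 1.34 times as high in LE livers.

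Promoters were searched for the core of the antioxidant response element, written TGACNNNGC, on both strands, in RefSeq windows of build GRCm38.p6 that run from 250 bases before to 50 bases after an annotated start. Windows were found for 7 of the 10 members, 13 windows in all, since Txnrd1 has 3 and Nfe2l1 has 5. A match lay in 5 of the 7 genes, with 6 matches in 5 windows. Across all 32851 RefSeq windows, 12.4% held a match, and of all 27025 genes 14.0% held 1 in any of their windows. Genes with several starts had more chances of a match. Nqo1 and Nfe2l1 held none in these windows, which says only that these letters are not there.

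Ugdh was the member with 2 matches, on opposite strands, and its window is shown from base -160 to -61 (chr5:65435903-65436002, minus strand of the chromosome, GRCm38.p6). Capitals mark the matches. The first is read along the gene and the second, being on the opposite strand, appears as its reverse complement.
Ugdh: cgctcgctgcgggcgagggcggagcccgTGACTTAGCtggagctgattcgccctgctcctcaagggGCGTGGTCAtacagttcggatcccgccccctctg

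The other matches are shown with their flanks, written 5′ to 3′ along the gene with the core in capitals, because they come from a member that rose and from members that did not pass. The match of Srxn1 starts 29 bases into the transcript (chr2:152105542-152105570, plus strand). Those of Gclm (chr3:122245407-122245447, plus strand), Txnrd1 at the second of its starts (chr10:82859098-82859138, plus strand) and Nfe2l2 (chr2:75704879-75704913, minus strand) lie upstream, at -134, -92 and -240.
Srxn1: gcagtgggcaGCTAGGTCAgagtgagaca
Gclm: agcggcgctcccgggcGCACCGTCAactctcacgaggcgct
Txnrd1: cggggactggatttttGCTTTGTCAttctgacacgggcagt
Nfe2l2: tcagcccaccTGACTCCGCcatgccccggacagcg

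Beside these sequences stand changes of 1.02 for Srxn1, 0.75 for Ugdh, 0.01 for Gclm, 0.00 for Txnrd1 and 0.03 for Nfe2l2 on the log2 scale. Nqo1, with no match in its window, changed by 0.41. Matches were thus found both among members that rose and among members that did not pass.

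**Figure D4:**
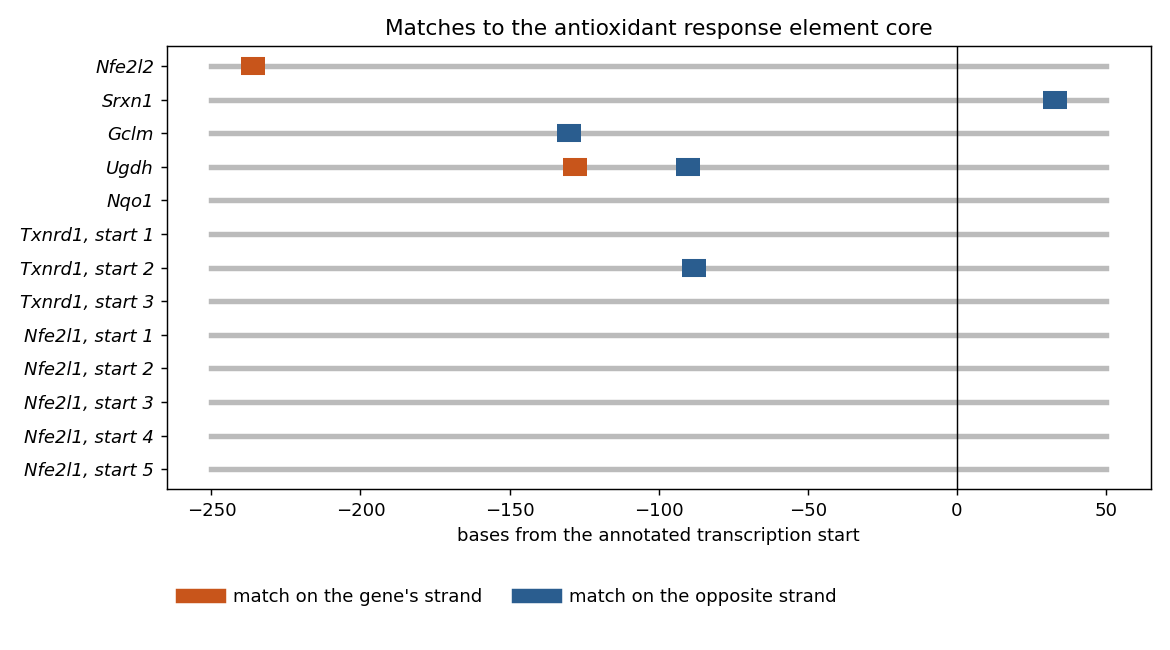
Promoter windows of 7 members from 250 bases before to 50 bases after each annotated start, with matches to the antioxidant response element core as blocks, by strand. Ugdh carries 2 matches, Nfe2l2, Srxn1, Gclm and the second start of Txnrd1 carry 1 each, and Nqo1 and the 5 starts of Nfe2l1 carry none.

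The wider pathway was described with 11 lists of genes that hold none of the 10 members. They held 192 different genes with a measurement, of which 29 rose (15.1%) and 27 fell (14.1%), with a median change of 0.01. The shares over all genes were 7.01% and 5.08%, and over genes above the median level 12.0% and 8.08%. Other settings called more of all genes. Lower genes numbered 1598 after quantile normalisation, 1560 with the intensity trend and 1678 by the cyberT-like test, against 1012. Higher ones numbered 1460, 1961 and 2068, against 1398. A list count that grows in these settings is therefore not read as particular to the list. In each list up to 4 called genes with the largest change are named by rule. Slc48a1, Gstp1, Abcb6, Chac2, Gsto1, Gstk1, Gstz1, Gstm3, Gstm4, Gstt1, Msrb1, Rpia, Idh1, Nadk, Slc40a1, Tfr2, Ftl1, Pgm2, Ugp2, Keap1, Sqstm1 and Slc7a11 were named after their values were seen. All adjusted p-values are limma's.

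Among 18 genes that control NRF2 and NRF1 or pair with them, 2 rose, 2 fell and 14 did not pass, with a median of 0.01. Mafk, a small Maf protein that pairs with all 3 factors, read 8.98, 8.85 and 8.79 on the log2 scale in LE livers and 8.49, 8.48 and 8.45 in CH livers. The groups did not overlap, and the change was 0.40 (SE 0.06, adjusted p = 0.00441). Gsk3b, a kinase that marks NRF2 for breakdown, rose by 0.41 (SE 0.05, adjusted p = 0.00204). The repressors Bach2 and Bach1, which compete for small Maf partners and the same DNA sites, fell by 0.36 (SE 0.06, adjusted p = 0.00765) and 0.25 (SE 0.05, adjusted p = 0.0244). The call of Bach1 ended without any 1 array (adjusted p 0.0534 to 0.0893), which leaves 1 lower gene in the list each time. Keap1 changed by 0.10 (95% interval -0.03 to 0.23), and Sqstm1, whose protein draws KEAP1 into autophagy, by 0.01 (-0.10 to 0.12).

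Of 20 other genes known as NRF2 targets, 2 rose, 5 fell and 13 did not pass, with a median of -0.12. Cbr1, a carbonyl reductase, rose 1.74-fold (log2 0.80, SE 0.06, adjusted p = 0.000136), and the haem transporter gene Slc48a1 rose by 0.23 (adjusted p = 0.0198). The genes that fell were Gsta4, a transferase for lipid aldehydes (-0.73, SE 0.07, adjusted p = 0.000407), the aldehyde oxidase Aox1 (-0.72, SE 0.05), the epoxide hydrolase Ephx1 (-0.48, SE 0.05), Gstp1 (-0.44) and the porphyrin transporter Abcb6 (-0.43). Calls in this list thus went both ways, with more lower than higher. At an unadjusted p under 0.05, 2 were higher and 9 lower, a looser cutoff whose share over all genes is not given. Slc7a11, the cystine importer, was dim and changed by -0.11 (95% interval -0.27 to 0.06). The call of Slc48a1 ended without LE1, CH1 or CH2 (adjusted p 0.0637 to 0.0863), leaving 1 riser. The list had 9 lower genes after quantile normalisation, with an intensity trend or by the cyberT-like test, and 8 without the dimmest 33.3% of genes.

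The genes around glutathione also went both ways. Of 15 in its synthesis, recycling and use, 2 rose, 3 fell and 10 did not pass, with a median of -0.05. Gss, which completes glutathione after glutamate-cysteine ligase, fell by 0.49 (SE 0.06, adjusted p = 0.00128), while Gclc fell by 0.20 and Gclm changed by 0.01. Gpx4, which reduces lipid peroxides in membranes, rose by 0.43 (SE 0.06, adjusted p = 0.00253), and Ggct, of the gamma-glutamyl cycle, by 0.35 (SE 0.07, adjusted p = 0.0122). Chac1 and Chac2, which break glutathione down, fell by 0.36 (adjusted p = 0.00398) and 0.25 (adjusted p = 0.0287). The call of Ggct ended without CH1 (adjusted p = 0.0502, 1 riser left), and that of Chac2 without LE1, LE2, CH1, CH2 or CH3 (0.0683 to 0.103). The list had 5 lower genes after quantile normalisation, 6 with an intensity trend and 5 by the cyberT-like test.

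Among 21 glutathione S-transferase genes 6 were called higher, 5 lower and 10 neither, with a median of 0.05. Gstt3 (0.74, SE 0.07, adjusted p = 0.00048), Mgst3 (0.66, SE 0.08) and Gstm5 (0.50, SE 0.05) changed the most among the risers. The others were Gstm4 (0.30), Gstm3 (0.21) and Gstt1 (0.20). The call of Gstm4 ended without CH1 (adjusted p = 0.0547). That of Gstm3 ended without LE2, LE3, CH1, CH2 or CH3 (0.0775 to 0.119), and that of Gstt1 without any 1 array (0.0542 to 0.123). Those that fell were Gsta4, Gstp1, Gstk1 (-0.22), Gsto1 (-0.22) and Gstz1 (-0.20). Several genes of this family have near-identical copies that may share probes, Gstp1 among them, and for these the copy that changed is uncertain. The calls of Gsto1, Gstk1 and Gstz1 each ended without LE2, CH1, CH2 or CH3, and those of Gstk1 and Gstz1 also without LE1 (adjusted p 0.059 to 0.125). The lower genes numbered 3 without LE1 and 2 without LE2, CH1, CH2 or CH3. The higher ones numbered 3 without CH1, 5 without LE1 and 4 without LE2, LE3, CH2 or CH3. After centring on array medians 4 were higher, since Gstm3 (adjusted p = 0.076) and Gstt1 (adjusted p = 0.0525) lost their calls.

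The thioredoxin and peroxiredoxin system had 3 risers among 17 genes, 2 that fell and 12 not called, with a median of 0.05. Sesn1, a stress-induced sestrin, rose 1.82-fold (log2 0.86, SE 0.08, adjusted p = 0.00029), and Txnrd3, a thioredoxin and glutathione reductase best known from testis, 1.64-fold (0.71, SE 0.06, adjusted p = 0.000298). Txnrd1, by contrast, changed by 0.00. Sesn2 rose by 0.35 (SE 0.07, adjusted p = 0.021), and its call ended without LE3, CH1 or CH2 (0.0574 to 0.0614). Prdx1, a peroxiredoxin whose over-oxidised form is repaired by the product of Srxn1, fell by 0.30 (SE 0.07, adjusted p = 0.0208) while Srxn1 rose. The call of Prdx1 ended without LE3, CH1, CH2 or CH3 (0.052 to 0.0653), and that of the methionine sulfoxide reductase Msrb1 (-0.26, adjusted p = 0.0203) without LE1, LE2, CH1 or CH3 (0.0665 to 0.0771). Lower genes numbered 1 without LE1, LE2, LE3 or CH2 and 0 without CH1 or CH3.

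Genes that supply NADPH, the reductant used by glutathione and thioredoxin reductases and by lipid synthesis, were higher more than lower: 7 of 15 rose, 0 fell and 8 did not pass, with a median of 0.11. Me1, the malic enzyme, rose 2.49-fold (log2 1.32, SE 0.05, adjusted p = 2.32e-06), with log2 levels of 12.70, 12.72 and 12.73 in LE livers and 11.44, 11.34 and 11.42 in CH livers. Pgd, of the pentose phosphate pathway, rose 2.46-fold (1.30, SE 0.06, adjusted p = 6.99e-06). G6pd2, a glucose-6-phosphate dehydrogenase gene with a near-identical copy that may share its probes, rose by 0.71 (SE 0.11, adjusted p = 0.00536), and the transketolase Tkt by 0.40 (SE 0.05, adjusted p = 0.00137). These 4 calls held without any 1 array, as did that of Rpia (0.355, adjusted p = 0.00964). The call of Idh1 (0.23, adjusted p = 0.018) ended without LE2, CH1 or CH2 (0.0598 to 0.0819). That of Nadk (0.20, adjusted p = 0.035) ended without any 1 array (0.0711 to 0.113). The count of 0 lower genes by limma depended on the processing, with 4 at an unadjusted p under 0.05 or after quantile normalisation, 2 after centring on array medians or with a pseudocount of 16, and 3 without the dimmest 33.3% of genes, with an intensity trend or by the cyberT-like test.

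The superoxide and peroxide list holds the superoxide dismutases, catalase and Nqo2, and of its 5 genes 1 fell, 0 rose and 4 were not called. The gene that fell was Nqo2, a quinone reductase related to Nqo1, at -0.24 (SE 0.06, adjusted p = 0.0294), where Nqo1 rose by 0.41. The call of Nqo2 ended without LE1, LE2, CH1, CH2 or CH3 (adjusted p 0.0764 to 0.101). At an unadjusted p under 0.05 limma had 1 gene higher and 1 lower. With an intensity trend or the cyberT-like test 1 gene was higher and 2 were lower, and without the dimmest 33.3% of genes or with a pseudocount of 16 a gene rose.

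Haem and iron genes, which include the substrate pathway of Hmox1, went both ways, 4 of 21 rising, 4 falling and 13 not called (median 0.02). Alas1, the first enzyme of haem synthesis in liver, rose by 0.49 (SE 0.05, adjusted p = 0.000459), and Tfrc, the transferrin receptor, by 0.60 (SE 0.06, adjusted p = 0.000388). Besides these, Slc48a1 and the ferritin light chain gene Ftl1 (0.22, adjusted p = 0.0172) rose. Alas2, given above, Steap3, an iron reductase (-0.42, SE 0.05, adjusted p = 0.00145), the iron exporter Slc40a1 (-0.31, adjusted p = 0.00553) and Tfr2, a second transferrin receptor (-0.22, adjusted p = 0.0282), fell. The call of Ftl1 ended without LE2, CH1 or CH2 (0.0597 to 0.0777) and that of Tfr2 without LE1, LE2, CH1, CH2 or CH3 (0.0532 to 0.112). The risers numbered 2 without CH1 or CH2, and 8 with an intensity trend or by the cyberT-like test. Ferritin genes have many processed copies, so Ftl1 is uncertain.

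The pathway in which Ugdh acts held more genes that fell than rose. Among 17 measured genes of UDP-glucuronate and ascorbate metabolism 1 was called higher, 5 lower and 11 neither, with a median of -0.10. Ugp2, which makes the substrate of Ugdh, fell by 0.28 (SE 0.05, adjusted p = 0.0139) and did not pass without CH3 (adjusted p = 0.0519). Pgm2, a phosphoglucomutase, rose by 0.41 (SE 0.06, adjusted p = 0.00345). Of the transferases that use sugar nucleotides, Ugt3a1 fell by 0.78 (SE 0.05, adjusted p = 2.59e-05) and Ugt2b1 by 0.69 (SE 0.06, adjusted p = 0.000171). Ugt2b1 belongs to a family of near-identical genes, so which copy changed is uncertain. The xylulose reductase Dcxr fell by 0.52 (SE 0.05) and Rgn, of vitamin C synthesis, by 0.46 (SE 0.06). The lower genes numbered 8 after quantile normalisation and 9 with an intensity trend or by the cyberT-like test.

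Of 36 proteasome genes, the best known targets of NRF1, 2 rose, 1 fell and 33 did not pass, with a median of 0.03. Over all genes 7.01% were higher and 5.08% lower. The mRNA of Nfe2l1 changed by 0.31, and the activity of NRF1 protein was not measured. Psmd5, an assembly factor of the regulatory particle, rose by 0.32 (SE 0.05, adjusted p = 0.00602). Psmb5, a catalytic subunit, rose by 0.20 (SE 0.05, adjusted p = 0.0488), a call that ended without any 1 array (0.077 to 0.136) and after centring (0.0754). Psme4, a proteasome activator, fell by 0.20 (SE 0.05, adjusted p = 0.0301), a call that ended without LE1, LE2, CH1, CH2 or CH3 (0.0743 to 0.122). By the cyberT-like test 6 were higher and 2 lower, and with an intensity trend 4 were higher.

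Of 14 partners of NF-E2 and other regulators of red cell and platelet precursors 2 rose, 1 fell and 11 did not pass, with a median of 0.03 beside 2.28 for Nfe2. The risers were Mafk and Runx1, a factor of blood progenitors, at 0.31 (SE 0.07, adjusted p = 0.025), and the gene that fell was Klf1. The call of Runx1 ended without LE1, LE3, CH1 or CH2 (adjusted p 0.0722 to 0.0847), which left 1 riser. Without LE1, LE2, CH1, CH2 or CH3, where Klf1 was not called (adjusted p 0.0726 to 0.127), 0 genes fell.

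**Figure D5:**
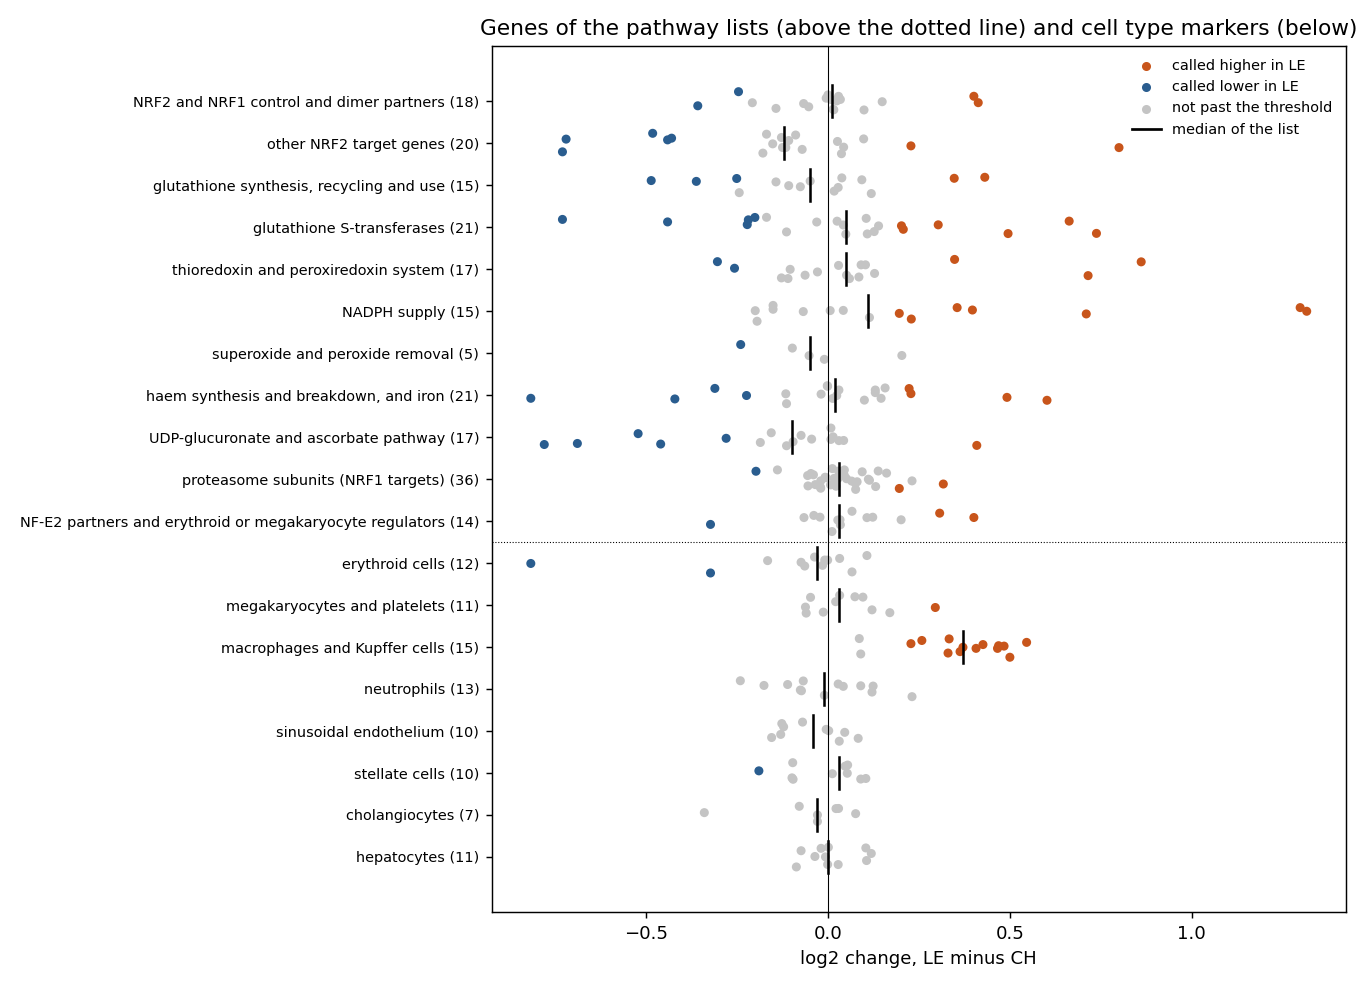
Log2 change, LE minus CH, of each measured gene in the 11 pathway lists and 8 cell type marker lists, with the number measured in brackets, called genes in colour and a line at each list's median. The macrophage markers lie together to the right (median 0.37), the NADPH genes reach 1.32, and the other lists spread to both sides of 0.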

How the data were processed

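Per the labels' protocols, Trizol was used for RNA extraction, and the arrays were Affymetrix Mouse Gene 1.0 ST. The values that the authors deposited are linear intensities of probe sets, with array medians from 158.1 to 162.9. How background and normalisation were handled is not given in the sources used here, and no detection calls were used. Groups came from the sample titles. Of 35556 probe sets, 21789 were annotated to 1 gene, and 21698 of these matched RefSeq by gene identifier. The brightest of a gene's probe sets stood for the gene (19938 genes).

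Intensities were taken as log2(intensity + 1), a scale that understates changes of dim genes. The diets were compared by limma 3.58.1 (lmFit, eBayes; R 4.3.3), two-sided, adjusted by Benjamini-Hochberg over all genes at a threshold of 0.05. With 3 arrays against 3, an exact permutation test has a smallest p of 0.1. The fits were tested on simulated data. Python 3.11.15, pandas 2.3.3, numpy 2.4.6 and matplotlib 3.10.9 made tables and plots. Alternatives were a replicate block, quantile normalisation, array medians set equal, a fit without the dimmest 33.3% of genes, averaging the probe sets of a gene, every probe set, an intensity trend with robust prior, a cyberT-like test, pseudocounts of 16 and none, and leaving out each array.

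The members and gene lists were chosen with earlier results of these data known. By rule the text names the 10 members, up to 4 called genes per pathway list with the largest change (or the 1 with the smallest p), the largest change per marker list, and the 5 and 3 patterns nearest to Nfe2 and Nqo1. Listed genes without a single-gene probe set were left out. The number of arrays limits the precision.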

Additional observations from a re-analysis of the deposited data

How the results depend on the processing

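Of the 9 members other than Nfe2, 8 kept their side of the threshold in the 15 alternatives run gene by gene, and Gclc lost its call with a replicate block (adjusted p = 0.0777) and in 5 of 6 fits without an array. Member changes under these alternatives ran from 2.16 to 2.40 for Nfe2, 0.99 to 1.05 for Srxn1, 0.73 to 0.76 for Ugdh, 0.38 to 0.43 for Nqo1, 0.30 to 0.36 for Hmox1, 0.28 to 0.34 for Nfe2l1 and -0.23 to -0.17 for Gclc. Centring on array medians moved the median of all genes to -0.03, from 0.00. The sole called member that fell gave a count of 1, which was 0 with the replicate block and 0 to 1 without single arrays. For same-numbered arrays the r of deviations from the group mean was -0.02, -0.10 and 0.16, within the range of other pairs (-0.23 to 0.25). With 3 arrays per group these values cannot exclude pairing. The main fit did not take the numbers as pairs, and the replicate block was run as an alternative. With the replicate block 657 genes were lower, against 1012. With this block the dim cholangiocyte marker Cftr was called lower (adjusted p = 0.0257). The markers Klf1, Tbxas1 and Col3a1 lost their calls with the block (adjusted p 0.0783, 0.0611 and 0.0805). Of the pathway list genes 22 were higher and 19 lower with the block, against 29 and 27. Besides Klf1, it ended the calls of Bach1, Slc48a1, Gsto1, Gstk1, Gstz1, Gstm3, Gstt1, Idh1, Nadk, Nqo2, Ftl1, Tfr2, Psmb5 and Psme4 (adjusted p 0.0511 to 0.0903). Lower genes numbered 1598 after quantile normalisation, 1560 with an intensity trend and robust prior, 1678 by the cyberT-like test, and 525 to 893 without single arrays (525 without LE2, 551 without CH1, 612 without CH3). Of the pathway list genes, lower ones numbered 42, 45 and 46 in those 3 settings, against 27, and 15 to 26 without single arrays (15 without CH3, 16 without CH1, 17 without LE2 or CH2), and higher ones 18 (without CH1) to 25 without single arrays, against 29. Each member has 1 probe set, so other probe sets could not be run for them.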
